A study of Mus musculus with 8 samples.

Results

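The 2 peak lists of the repressive histone mark H3K9me3 in mouse bone marrow mesenchymal stem cells, 1 from cells with the demethylase KDM4B and 1 from cells without it, are described here with all of their peaks. They hold 56249 of the 88367 regions in the 6 lists of the series, 943 in wild type (WT) and 55306 in knockout (KO). Primary cells of the WT group came from Prx1Cre; Kdm4bw/w mice and those of the KO group from Prx1Cre; Kdm4bf/f mice, so the Cre transgene was carried by both. The Prx1 promoter drives Cre in limb mesenchyme and its descendants, and marrow cells of any other origin would keep an intact Kdm4b. Cells of both genotypes were in osteogenic induction for 4 hours, and yeast chromatin was added to the H3K9me3 immunoprecipitations. Each genotype gave 1 H3K9me3 library, so no comparison below carries a test, and intervals cover the counting of peaks only. How many animals each came from and how deeply it was sequenced are not stated in what was used here, and a peak number depends on depth, control and threshold.

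Trimethylation of lysine 9 on histone H3 is written by enzymes such as SUV39H1 and SETDB1 and read by HP1 proteins, which compact the chromatin. In mouse cells it is known for constitutive heterochromatin near centromeres, for retroviral and other repeats and for clusters of KRAB zinc-finger genes, where it tends to form broad domains. KDM4 enzymes remove it, and KDM4B is known to act in mesenchymal cells on their way to bone. Chromosomes are given with positions in mouse build mm9. No gene annotation or genome sequence of that build was used here, so loci are described by position, size, spacing and the other antibodies that recovered them. Promoters, gene bodies and repeat classes were not assigned, and no sequence is shown.

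The WT list was short and the KO list long. Most peaks of both lists were narrow, and broad ones made up a larger share of the WT list. WT peaks had a median width of 330 bp against 256 bp for KO peaks, with 95th percentiles of 1726 and 590 bp. The widest peak measured 21.3 kb in WT and 19.6 kb in KO. The smallest width, 199 bp, was taken by 103 WT peaks and 11504 KO peaks. The 10 widest peaks alone held 125.5 kb in WT, or 21.2% of the 593 kb covered, while the 10 widest KO peaks held 109 kb, or 0.639% of 17087 kb. Peaks of 5 kb or more numbered 13 in each list. From 1 kb to under 5 kb there were 85 in WT, or 9.01%, and 282 in KO, or 0.510%. Under 300 bp there were 420 in WT, or 44.5%, and 35549 in KO, or 64.3%.

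**Figure D1:**
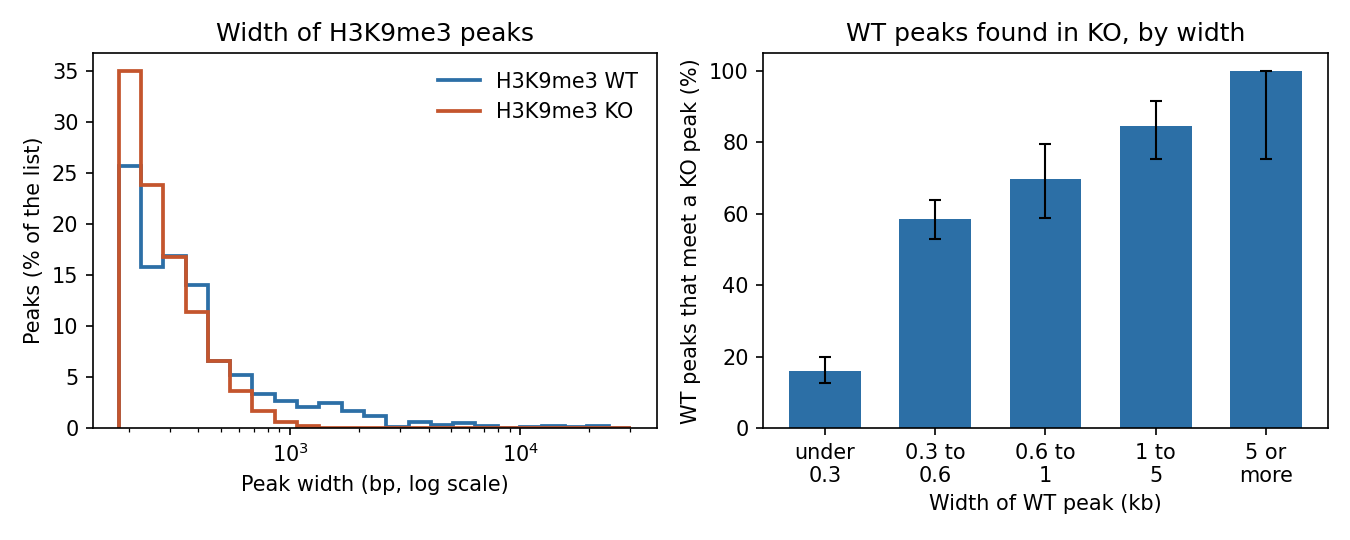
Left, the share of each H3K9me3 list (vertical axis, % of peaks) in classes of peak width (horizontal axis, bp, log scale) for WT (blue) and KO (orange). Right, the share of WT peaks that meet a KO peak in 5 width classes, with bars for 95% exact binomial intervals, from 16.0% under 0.3 kb to 100% at 5 kb or more.

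Whether a WT peak was also present in KO went with its width. A WT peak was counted as found when it shared at least 1 bp with a KO peak, which 410 of 943 did. In bases, 350 kb of the 593 kb of WT sequence, or 59.1%, was covered in KO too, so the sharing was larger by length than by number. All 13 WT peaks of 5 kb or more were found (95% exact binomial interval 75.3 to 100%), and KO peaks covered 91.2% of their bases. The 10 widest of them lay on chromosomes 1, 11 and Y alone, several in the same block. The interval counts such neighbours as separate peaks. From 1 kb to under 5 kb, 72 of 85 were found, or 84.7% (75.3 to 91.6%). From 600 bp to under 1 kb it was 69.9% (58.8 to 79.5%), and from 300 to under 600 bp 58.5% (53.1 to 63.8%). Found WT peaks had a median width of 430 bp and those not found 253 bp. Under a 1 bp rule a wider peak has more room to meet a KO peak. The share of WT bases covered in KO also rose with width, from 12.9% under 300 bp to 91.2% at 5 kb or more. The share of the genome under KO peaks was not computed.

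The WT peaks absent from KO included lone peaks and peaks beside a KO peak. Of these 533 peaks, 95 were within 1 kb of a KO peak and 216 within 5 kb. Another 118, or 22.1%, lay more than 50 kb from any KO peak. A total of 259, or 48.6%, had no other WT peak within 10 kb. In the other direction, 51987 of the 55306 KO peaks, or 94.0%, were more than 100 kb from any WT peak. WT peaks lay in only 335 of 2584 windows of 1 Mb, so most positions are far from one. The share of the genome at that distance was not computed.

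Where a WT and a KO peak met one to one, widths were alike at the median, with a wide spread. There were 292 such pairs. The KO peak was wider in 134 and narrower in 151, with a median KO to WT width ratio of 0.997 and quartiles of 0.757 and 1.06. Both edges lay within 50 bp of each other in 124 pairs and within 200 bp in 233, and the larger of the 2 edge shifts had a median of 91 bp. In the 39 pairs with a WT peak of 1 kb or more, 22 had both edges within 200 bp, and the lower quartile of the width ratio was 0.625. In the 7 pairs whose WT peak was 5 kb or more, the median ratio was 1.00 and both edges agreed within 200 bp in 6. Among pairs that also met H3 of either genotype or the KDM4B antibody in KO cells, 27 of 32 had both edges within 50 bp.

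Grouping peaks at most 10 kb apart into blocks separated the kinds of loci in each list. WT formed 463 blocks, of which 351 were single peaks, and 21 blocks covered 5 kb or more. Those 21 held 279 of the 943 peaks and 61.8% of all WT bases. KO formed 21125 blocks, 11932 of them single peaks, and 181 of them, or 0.857%, held a WT peak. A WT peak alone in its block was found in KO in 26.2% of cases (21.7 to 31.1%), against 65.4% (56.8 to 73.4%) in blocks of 20 or more WT peaks. The latter were 136 peaks in only 5 blocks, where KO covered from 11.9 to 95.7% of the WT bases of a block. The interval does not cover that spread between blocks. Median widths also differed, at 249 bp for lone WT peaks and 532.5 bp in those 5 blocks. Outside the 21 large blocks, 221 of 664 WT peaks were found, or 33.3% (29.7 to 37.0%).

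The large WT blocks fell into 3 kinds by how much of their WT sequence was covered in KO. In 9 of the 21, at 75% or more, KO covered 90.9% of the WT bases, with 230 kb in WT and 231 kb in KO. In another 9, from 35.3 to 70.9%, WT covered 92.7 kb and KO 55.7 kb. In the last 3, all under 25%, WT covered 44.1 kb and KO 5.17 kb. These classes were set after the values were seen and describe 1 library of each genotype. The blocks were chosen for their WT coverage, and KO was measured only inside their WT edges. That choice favours less KO than WT coverage, and blocks chosen by KO coverage were not classed in this way.

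**Figure D2:**
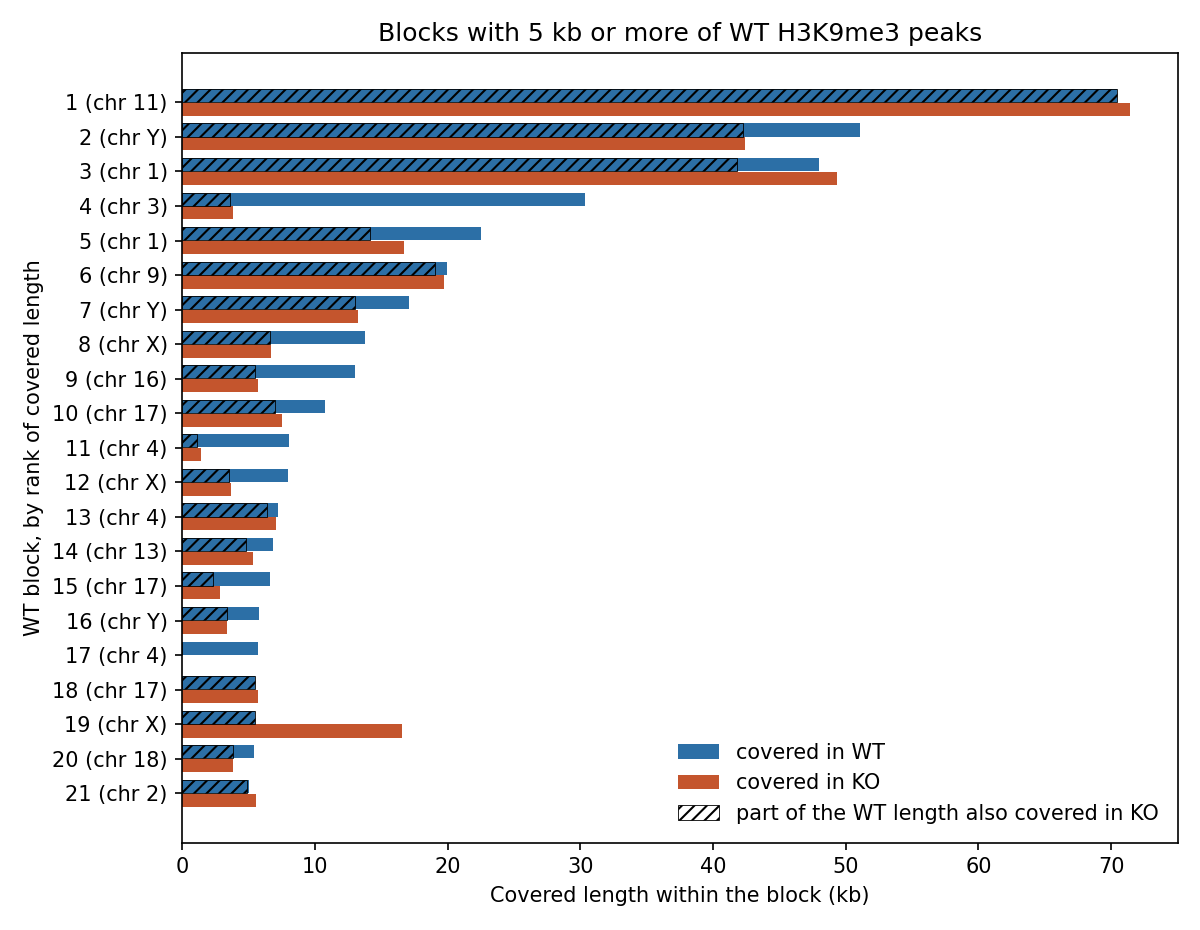
Covered length (horizontal axis, kb) in each of the 21 blocks with 5 kb or more of WT H3K9me3 peaks (vertical axis, ranked by WT length, with the chromosome), in WT (blue) and KO (orange); hatching marks WT length also covered in KO. Blocks 4, 11 and 17, on chromosomes 3 and 4, are nearly empty in KO, and block 19, at the end of the X, is the block where KO covers 16.6 kb against 5.49 kb in WT.

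The largest kept block lay near the start of the assembled chromosome 11, from 3027032 to 3100151. There 10 WT and 8 KO peaks covered 70.5 and 71.4 kb, and 99.96% of the WT bases were covered in KO. Its 4 widest peaks were matched singly: 19.6 kb in both genotypes from 3080541 in WT, 18.8 kb in both from 3030231, 15.4 kb in WT and 15.6 kb in KO from 3059400, and 7.25 and 7.27 kb from 3051947. This one block was 11.9% of the whole WT list by length. In KO cells the KDM4B and H3 antibodies each had 1 peak in it.

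A region on chromosome 1 was kept in part and with less exact edges. In WT it appeared as 2 blocks, from 90108069 to 90164991 and from 90176998 to 90207361, with 48.01 and 22.5 kb covered. KO covered 87.1% of the WT bases in the first and 62.9% in the second. In KO a single block of 46 peaks ran from 90106858 to 90206168 and covered 74.5 kb, 75.04% of its span. The KO peak from 90172316 to 90175080, 2.77 kb wide and the widest nuclear KO peak without a WT counterpart, lay in the stretch between the 2 WT blocks.

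The Y chromosome carried broad blocks, of which the largest were mostly kept. The block from 2847422 to 2902657 held 15 WT peaks over 51.1 kb and 25 KO peaks over 42.4 kb, and 82.7% of its WT bases were covered in KO. It included the widest WT peak, 21.3 kb from 2875622 to 2896899, which KO called as 10 separate peaks covering 90.4% of it. A second Y block, from 2777421 to 2797513, covered 17.0 kb with the demethylase and 13.2 kb without. A smaller one, from 1787846 to 1793789, covered 5.76 kb in WT and 3.34 kb in KO, with 57.9% of its WT bases in KO. In contrast, WT blocks of 7 peaks from 1264118 to 1272385 and of 4 peaks from 1634948 to 1642723 met no KO peak. Over the whole Y, WT had 82.8 kb and KO 60.9 kb, and 25 of 50 WT peaks were found in KO.

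The assembled starts of several chromosomes formed a class of their own in WT. Mouse chromosomes have the centromere at one end, and the assembly begins beside it. On the autosomes and the X, the stretch before position 3300000, about 300 kb, held 90 WT peaks on 9 chromosomes and 131 KO peaks on 15. These were 9.54% of WT peaks and 21.5% of WT bases, but 0.237% of KO peaks and 0.775% of KO bases. KO covered 88.9% of the WT bases there. Chromosomes 11, 9, 16 and 4 led in WT, with 73.4, 20.3, 13.0 and 9.07 kb, where KO had 77.6, 20.1, 5.80 and 9.52 kb. Chromosome 16 was the exception among these 4: its block from 3231619 to 3265779 kept 42.4% of its WT bases.

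Part of the kept WT sequence lay in places that other antibodies recovered too. Of the 463 WT blocks, 19 shared sequence with H3 peaks of either genotype or with KDM4B peaks called in KO cells. Counted as whole blocks, their 121 kb of WT peaks were covered to 97.6% in KO, and 70.5 kb of it was the chromosome 11 block. Only 35 WT peaks, over 51.6 kb, themselves shared sequence with those antibodies. KO covered 98.1% of the bases of these 35. The 19 blocks included the start of chromosome 9 from 2999873 to 3038396, with 19.9 kb in WT and 19.7 kb in KO. It held 17 KDM4B peaks of KO cells and 8 H3 peaks of WT cells. The block on chromosome 17 from 39979835 to 39985915, with 5.49 kb in WT and 5.71 kb in KO, held 3 KDM4B peaks of KO cells, 2 H3 peaks of WT and 3 of KO. The block on chromosome 2 from 98502254 to 98507610 measured 3.63 kb in WT against 3.51 kb in KO. As general background and not from a file used here, the chromosome 9 and chromosome 2 stretches are known for major satellite sequence and the chromosome 17 stretch for a ribosomal RNA gene copy. Smaller ones were single peaks of nearly the same outline in both genotypes, such as chromosome 5 from 147072428 to 147073042, at 0.615 kb, and chromosome 9 from 35112657 to 35113244, at 0.588 kb. Away from these antibodies by more than 10 kb, 39.5% of WT peaks were found in KO and 52.9% of WT bases were covered.

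Chromosome 4 carried more WT peaks than any other chromosome, 141, and few of them were in KO. There 28 of 141 WT peaks were found, or 19.9%, next to 3 of 14, or 21.4%, on chromosome 15. By length 21.7% of WT bases on chromosome 4 were covered in KO, and chromosomes 3 and 8 were lower at 17.7 and 18.4%. The windows of 1 Mb from 145000001 and from 146000001 held 20 and 34 WT peaks over 10.1 and 17.7 kb, against 6 and 7 KO peaks over 2.16 and 2.25 kb. KDM4B had 0 WT peaks in both, as it did in 24.1% of autosomal windows. This distal part of chromosome 4 is known for a cluster of KRAB zinc-finger genes, again as general background, and the peaks were not placed on those genes. In it, the WT block from 146883616 to 146911985 had 9 peaks over 5.74 kb and no KO peak, and the block from 146790785 to 146811407 had 13 WT peaks over 8.04 kb and 5 KO peaks over 1.38 kb. Further in, the block from 121749046 to 121786262 had 11 WT peaks over 4.50 kb and 4 KO peaks over 0.818 kb. The same chromosome also kept a block, at its start from 3007035 to 3018628, with 7.25 kb in WT and 7.06 kb in KO.

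Other blocks with less KO than WT coverage included ones on chromosomes 3, 17 and X. The chromosome 3 block, from 25416358 to 25456246, had 34 WT peaks, the most of any WT block, over 76.04% of its span, and KO covered 11.9% of its WT bases. It held 6 of the 10 widest WT peaks without a KO counterpart, from 2.39 kb down to 1.23 kb. On chromosome 17 the blocks from 13733227 and from 13399373 kept 64.7 and 35.3% of their WT bases. On the X the blocks from 121264118 to 121314789 and from 120112417 to 120129332 kept 47.7 and 44.2%. The X differed at its far end, in the block from 166420687 to 166439176. KO peaks covered all of its 5.49 kb of WT peaks and 16.6 kb between its WT edges. The KO block there was longer, from 166407764 to 166446690, with 26 KO peaks over 27.6 kb. It held 1 H3 peak in each genotype and 6 KDM4B peaks of WT cells, 2 of them in the WT block. The part of these H3 and KDM4B peaks in the result was not tested.

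Chromosome by chromosome, the KO list was denser on every autosome and not on the sex chromosomes. The ratio of KO to WT peak numbers ran from 28.8 on chromosome 3 to 209 on chromosome 15, with a median of 78.3 over the 19 autosomes. It was 0.857 on the X and 0.940 on the Y. By covered length the autosomal ratio ran from 9.77 on chromosome 1 to 158 on chromosome 15, while it was 1.10 on the X and 0.735 on the Y. Densities in KO ran from 9.76 to 44.2 peaks per Mb of autosome and in WT from 0.140 to 0.924. Chromosome 11, known as gene-rich, was the densest in KO, but in WT, at 0.337 per Mb, it came below chromosomes 4, 17, 1, 9, 3 and 16. Across the 19 autosomes, KO density went with KDM4B density (Spearman's rho 0.779) and WT density much less so (0.126). These are descriptions over chromosomes that share libraries, base composition and mappability, and no p is given.

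**Figure D3:**
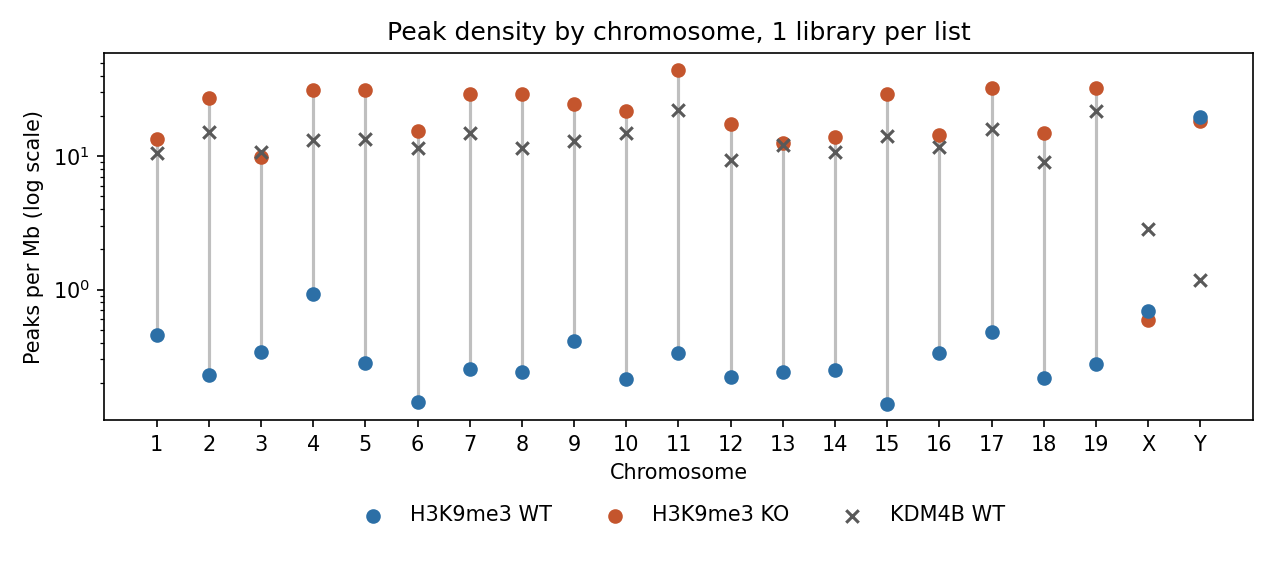
Peaks per Mb (vertical axis, log scale) on each chromosome (horizontal axis) for H3K9me3 in WT (blue) and KO (orange) and for KDM4B in WT (crosses). On the autosomes KO lies at 9.76 to 44.2 per Mb and WT at 0.140 to 0.924, while on the X and Y the WT and KO points nearly coincide.

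In windows of 1 Mb, more KO than WT peaks was the rule over the genome. Of 2584 windows between the first and the last peak of each chromosome, 78.8% had more KO than WT peaks, 1.08% had fewer, and the rest had equal numbers, including 496 with none of either. Among the 18 windows with 10 or more WT peaks, 7 had fewer KO peaks. Only the 335 windows with a WT peak can have fewer KO peaks, and the 18 were chosen for their WT peaks. The 1.08% over all windows is therefore not a like background for the 18. By covered length, 11 of the 18 had less in KO. They held 436 WT peaks, 46.2% of the list. The 7 were chromosome 3 from 25000001, chromosome 4 from 121000001, 145000001 and 146000001, the X from 120000001 and 121000001, and the Y from 1000001. KDM4B had 0 peaks in 6 of the 7 and 1 in the X window from 120000001. It had 0 in 584 of 2419 autosomal windows, or 24.1%. Among the 18 it also had 0 in windows without fewer KO peaks: chromosome 4 from 152000001, chromosome 1 from 85000001 and the Y from 2000001. The 7 were set by low KO counts, and KO counts went with KDM4B counts over autosomal windows. Only 15 windows had a WT peak and no KO peak, and the one with most was on the X from 122000001, with 6 WT peaks.

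The KO peaks crowded into KDM4B-rich windows, and the WT peaks did so much less. Over 2419 autosomal windows, the 584 without a KDM4B peak of WT cells had a median of 0 KO peaks (quartiles 0 and 2), those with 10 to 19 had 16 (8 and 31), and the 188 with 40 or more had 79 (35.8 and 123). WT peaks per window averaged 0.382 ± 2.66 (SD over windows) in the first class and 0.261 ± 0.679 in the last. The share of windows with at least 1 WT peak went the other way, from 8.73% in the first class to 18.1% in the last. Windows without KDM4B were 24.1% of autosomal windows and held 28.6% of autosomal WT peaks, but 1.75% of autosomal KO peaks. Spearman's rho over the windows was 0.792 between KO and KDM4B counts, 0.0982 between WT and KDM4B counts and 0.195 between WT and KO counts. Windows share mappability, base composition and neighbours, so these values are descriptions.

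**Figure D4:**
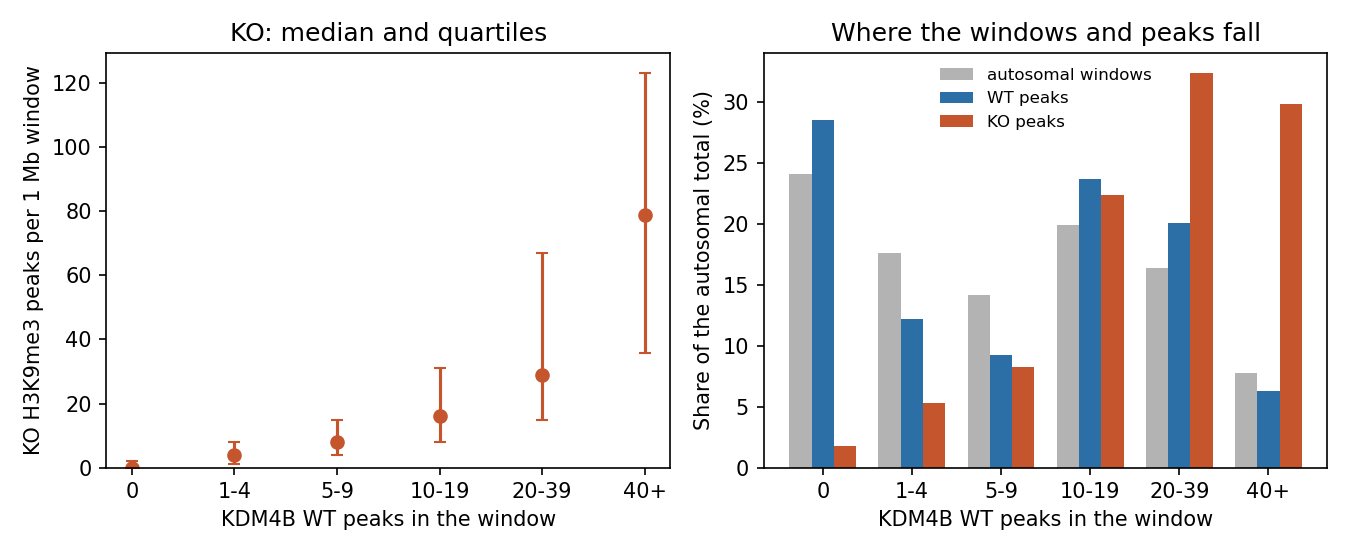
Autosomal 1 Mb windows grouped by their number of KDM4B WT peaks (horizontal axis). Left, KO H3K9me3 peaks per window as the median with quartile bars, from 0 to 79; right, the share (%) of windows, WT peaks and KO peaks in each group, where the group without KDM4B holds 28.6% of WT peaks and 1.75% of KO peaks.

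The densest KO windows held few WT peaks for their KO number, but not fewer than other windows. In 128 autosomal windows with 100 or more KO peaks lay 18737 KO peaks, 33.9% of the list, and 77 WT peaks. WT peaks averaged 0.602 per window there against 0.323 over all autosomal windows, and 27.3% of these windows held at least 1, against 13.1% of all autosomal windows. The block on chromosome 10 led, with 388 and 406 KO peaks in the windows from 79000001 and 80000001, where KDM4B had 92 and 123 peaks. Chromosome 4 from 140000001 followed with 263 KO and 1 WT peak, and chromosome 8 from 124000001 with 257 and 1. Chromosome 7 from 52000001 had 251 KO peaks and chromosome 8 from 123000001 had 243, both with 0 WT peaks. KDM4B was not equally dense in all of them: the chromosome 4 window from 151000001 had 218 KO peaks and 20 KDM4B peaks, and the chromosome 2 window from 167000001 had 215 and 74.

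KO peaks formed long runs of narrow peaks. KO had 234 blocks of 20 or more peaks, with 7367 peaks, and 221 of them, or 94.4%, held no WT peak. Of all KO blocks 0.857% held a WT peak, but 11932 of the 21125 were single peaks, so longer blocks have more room to hold one. By peak, 1.53% (1.27 to 1.84%) in the long runs met a WT peak, against 0.662% (0.525 to 0.824%) of single KO peaks. In blocks of 2 to 4, 5 to 9 and 10 to 19 peaks it was 0.583, 0.854 and 0.651%, with no steady rise. The long runs had a median span of 70.0 kb, of which peaks covered a median of 12.5%. The median of their widest peak was 743 bp. The longest run, on chromosome 10 from 79317103 to 79703159, had 186 peaks over 386 kb and covered 16.8% of it, with 63 KDM4B peaks. The chromosome 8 run from 122918120 to 123222387 had 126 peaks and 16 KDM4B peaks, and the chromosome 8 run from 124746945 to 124882175 had 71 peaks and 2 KDM4B peaks. The 21 large WT blocks, which were chosen by covered length and not by number of peaks, had 20.2 to 96.9% of their span covered in WT. Runs of 20 or more lay on 20 chromosomes, with 27 on chromosome 8, 24 on chromosome 11 and 0 on chromosome 13. The X and the Y each had 1, at loci where WT peaks were present too.

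Spacing differed between the genotypes. The gap to the nearest KO peak had a median of 1.85 kb, with quartiles of 0.409 and 7.88 kb, and 39.7% of KO peaks had another within 1 kb. In WT the median gap was 1.43 kb with quartiles of 0.227 and 512 kb, so WT peaks were either close together or very far apart: 31.6% were more than 100 kb from the next, against 2.56% in KO. The middle of the gap between neighbouring KO peaks lay in a KDM4B peak in 21.5% of 1945 gaps up to 100 bp (19.7 to 23.4%), in 11.2% of gaps over 500 bp and up to 1 kb (10.3 to 12.2%) and in 2.76% of gaps over 5 and up to 10 kb (2.40 to 3.17%). In WT it did so in 0 of 55 gaps up to 100 bp, for which the exact interval reaches 6.49%. KO peaks themselves met KDM4B in 15.7% of cases, counted by any shared bp and not by a middle point. The middle of a short gap lies close to its KO peaks, and the part of that closeness in the fall was not tested.

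Set against the other lists, most KO peaks met neither a WT H3K9me3 peak nor a KDM4B peak. The 943 WT peaks limited how many KO peaks could meet one. The share of the genome under KDM4B peaks was not computed, so no background stands beside the shares at KDM4B. Of 55306 KO peaks, 46173, or 83.5%, met no peak of either list, 8697 met KDM4B only, 427 met a WT peak only and 9 met both. Median widths were 248 bp in the first kind, 304 bp at KDM4B and 425 bp at WT peaks. A width of 1 kb or more was reached by 0.264% of the first kind, 1.07% at KDM4B and 18.03% at WT peaks. KO peaks in single-peak blocks met KDM4B in 17.1% of cases (16.5 to 17.8%) and those in blocks of 20 or more in 13.9% (13.1 to 14.7%), so the share at KDM4B was not higher in the long runs. WT peaks met KDM4B in 14 of 943 cases, or 1.48% (0.814 to 2.48%). The median distance to the nearest KDM4B peak was 210 kb for WT peaks and 17.5 kb for KO peaks.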

How the data were processed

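Peak positions of 1 H3K9me3 library per genotype were analysed, with the KDM4B and H3 lists beside them. The members and lists were chosen with earlier results of these data known. Bowtie, SAMtools and MACS2 (MACS for KDM4B) were used, per the submitters' processing notes, which list builds mm9 and hg19. Nothing used here states versions, thresholds, pooling or any use of the spike-in, except that the H3 WT table names MACS2 with a control, per the file headers. Of the 6 deposited files, 5 hold positions alone, so a stricter threshold could not be tried. Starts were read as counted from 0 and are printed from 1; the smallest width of 199 bp and a first mitochondrial start that already begins at 1 leave 1 bp in doubt.

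Peaks at most 10 kb apart formed blocks. Shared meant at least 1 bp. Windows of 1 Mb took peaks by midpoint. Intervals are 95% exact binomial (Clopper-Pearson). Named regions followed a rule fixed at the start: the widest peaks, the densest windows and blocks with 5 kb or more of WT peaks; other regions were picked after their values were seen. The gene and sequence tables used here are of GRCm38.p6, another build, so the planned shares at promoters, between genes, in gene-dense windows, in zinc-finger clusters and in repeats, and the gene lists, were not run. Python 3.11.15, numpy 2.4.6, scipy 1.17.1 and pandas 2.3.3 were used. Overlaps were tested on simulated data and gave the same counts as bedtools 2.31.1 in all 30 comparisons of lists.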

Additional observations from a re-analysis of the deposited data

Results flagged for a closer look

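On the X chromosome the KO list had 0.857 times as many H3K9me3 peaks as the WT list and on the Y 0.940 times, while over the autosomes it had 70.6 times as many. By covered length the ratio was 1.10 on the X and 0.735 on the Y, so on the X the direction depended on the measure. Each genotype has 1 library, and this difference was not tested.

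Mitochondrial DNA, which is not wrapped in histones, had 5 H3K9me3 peaks over 10.9 kb in KO and 0 in WT. H3 had 2 peaks there in WT and 0 in KO, and both KDM4B lists had 0.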

How the results depend on the processing

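The KO to WT ratio of peak numbers, 58.6 as deposited, was 70.6 on autosomes only, 69.1 with peaks within 1 kb merged, 37.8 for peaks of at least 300 bp, 63.2 without peaks up to 10 kb from those of H3 or of KDM4B in KO and 83.0 without the 21 large WT blocks. In the same order the covered length ratio, 28.8, was 36.6, 31.2, 18.02, 33.3 and 74.1. The share of WT peaks found in KO, 43.5%, was 36.5% with merging, 56.6% at 300 bp or more, 53.6% for peaks within 1 kb of each other, 39.3% without the regions near those antibodies and 33.3% without the large blocks; it moved less on autosomes (42.4%) and at 50% overlap (41.3%). The share of KO peaks found in WT, 0.788%, was 0.618% on autosomes, 0.580% with merging, 1.58% at 300 bp or more, 0.926% within 1 kb, 0.676% without the regions near other antibodies and 0.398% without the large blocks. The share of WT bases in KO, 59.1%, was 57.9% on autosomes, 61.6% with merging, 64.8% at 300 bp or more, 52.6% and 37.9% in the last 2 settings, which were chosen after seeing the data, as were the settings for both measures of length. Every setting run left more KO than WT peaks. The cause of these changes was not tested, apart from what each setting leaves out. A stricter threshold, and the promoter, window and zinc-finger alternatives, were not run. No paired analysis was possible because each genotype has 1 library. The unknown depth of both libraries limits all counts.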
